A study of Saccharomyces cerevisiae with 5 samples.

Results

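Single molecules of the early-efficient origins ARS305 and ARS315 were divided by the methylation of their own nucleosome-free region (NFR), and the rest of the ring was compared between the resulting classes. The NFR was a fixed stretch of 90 bp at ARS305 and 120 bp at ARS315. A molecule was called closed when the mean call over its NFR lay below the array mean of its library and strand, and open when it was 2 or more times that mean. The array is a nucleosomal spike-in, and levels are given with array = 1. Of 15452 reads of both origins, 2126 were closed (13.8%), 11355 were open (73.5%) and 1971 lay between the limits and were left out (12.8%). The 13481 open and closed molecules belong to a series of 43459 reads that also covers the late-inefficient origins ARS313 and ARS316. Because NFR calls chose the classes, NFR levels and class sizes are a description without a test, and the comparisons use the ring outside the NFR only. Class and outside level come from the same reads, so that the overall methylation of a molecule enters both.

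In MATAC-seq, purified chromatin rings are treated with DNA methyltransferases, and Nanopore sequencing reads which bases of a single molecule were methylated. Nucleosomes and bound proteins shield DNA from the enzymes, so that methylated stretches mark accessible DNA. An origin of budding yeast carries an NFR where the origin recognition complex binds, between positioned nucleosomes. Isw2 is the ATPase of a nucleosome-spacing remodeler of the ISWI family, and Ies6 belongs to the INO80 remodeler.

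The 5 libraries comprised 1 of wildtype (labelled replicate 2), 2 of isw2Δ (isw2delta::ura3) and 2 of ies6Δ (ies6delta::his). All strains were MATa bar1::kanMX4 with ura3delta0, met15delta0, his3delta1 and leu2delta0, carried an origin between recombination sites with LEXA sites, and expressed LEXA-TAP from pTEF2 and R recombinase from pGAL1-10. In every group the cells had been arrested in G1 with alpha-factor while galactose induced excision of the ring, and each library pooled 4 strains, 1 per origin. The study describes its replicates as biological, and with 1 or 2 libraries per genotype p-values measure the spread between these libraries. In limma fits that spread is in part shared over all regions or windows. Comparisons of open with closed molecules take the 5 libraries of all genotypes as 1 group, so that their spread includes that between genotypes.

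Each early origin had 1477 to 1560 reads per library. A read reports on the bases of its own strand, since 99.5% of positions at ARS305 and 99.4% at ARS315 were called on 1 strand only. Within the NFR, 37 positions of ARS305 were callable on forward and 53 on reverse reads, against 59 and 58 at ARS315. The array was methylated at 3.23% (forward) and 3.74% (reverse) of positions in wildtype and at 4.51 to 6.17% in the mutant libraries. A closed read of ARS305 therefore held at most 2 or 3 NFR calls in wildtype and at most 4 or 5 in the mutants, and an open read at least 6 or 7 against at least 9 to 12. Differences between wildtype and the mutants cannot be told apart from this difference in methylation. The same holds between isw2Δ, with array means of 5.67 to 6.17%, and ies6Δ, with 4.51 to 5.16%.

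Oligonucleotides of the study show which bases carried the signal beside and far from the NFR. Each was placed on its ring by its pattern of A and C against G and T, set against the strand with more calls. No ring sequence was compared, and the printed bases are those of the oligonucleotides. The stretches below matched this pattern without a mismatch. They lie on chromosome III, are written 5′ to 3′ as the strand that was read, and have capitals at bases methylated in at least 10% of open molecules (mean of 5 libraries).
ARS305, 7 to 27 bp before the NFR, forward reads: tttcAtgtActgtccggtgt
ARS305, 65 to 86 bp past the NFR, reverse reads: tttttAgcccccgtgtAAgtt
ARS305, 289 to 312 bp before the NFR, reverse reads: gAAAgtAgttAttACggCgtCgg
ARS315, 14 to 37 bp before the NFR, forward reads: tgtgtgtttgtAtActctgtggg
ARS315, 72 to 93 bp past the NFR, reverse reads: tAAgcggcAAAAcActtgtgt
The stretch just before the ARS315 NFR had its highest base methylated in 23.2% of open and 5.85% of closed molecules. Over all its A and C, open and closed molecules were methylated at 8.36% and 1.21% in wildtype, 14.0% and 4.73% in isw2Δ replicate 1, 14.1% and 3.22% in isw2Δ replicate 2, 11.3% and 4.80% in ies6Δ replicate 1, and 8.67% and 3.38% in ies6Δ replicate 2. The classes did not overlap there. The highest base just before the ARS305 NFR had 24.8% and 5.73%, that past it 30.3% and 15.7%, and that past the ARS315 NFR 26.9% and 11.3%. At its highest base the far stretch of ARS305 differed less, with 38.3% of open and 28.1% of closed molecules. Highest bases were picked by their level in open molecules, so their values are a description. Over all A and C just before the ARS305 NFR, open and closed molecules had 6.65% and 4.69% in wildtype. They had 9.80% and 5.30% in isw2Δ replicate 1 and 9.96% and 8.13% in isw2Δ replicate 2. In ies6Δ they had 8.50% and 4.12% (replicate 1) and 6.77% and 6.22% (replicate 2), and the classes overlapped between libraries. The first stretch had a next best match with 1 mismatch in the pattern of A and C, the others with 2 or 3. Past the ARS305 NFR, ies6Δ replicate 2 went the other way over all A and C, with 7.91% in open and 10.7% in closed molecules.

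The wildtype library held the largest shares of closed molecules, 26.9% at ARS305 and 28.8% at ARS315. At ARS305 the isw2Δ libraries had 5% and 3.78% and the ies6Δ libraries 7.56% and 8.40%. At ARS315 the isw2Δ libraries had 11.9% and 12.1% and the ies6Δ libraries 17.8% and 16.7%. Open molecules made up 61.9% of wildtype and 84.3 to 89.0% of mutant reads at ARS305, and 56.3% and 63.9 to 70.8% at ARS315. Closed molecules of ARS305 were few in isw2Δ, with 18 to 44 reads per strand.

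**Figure D1:**
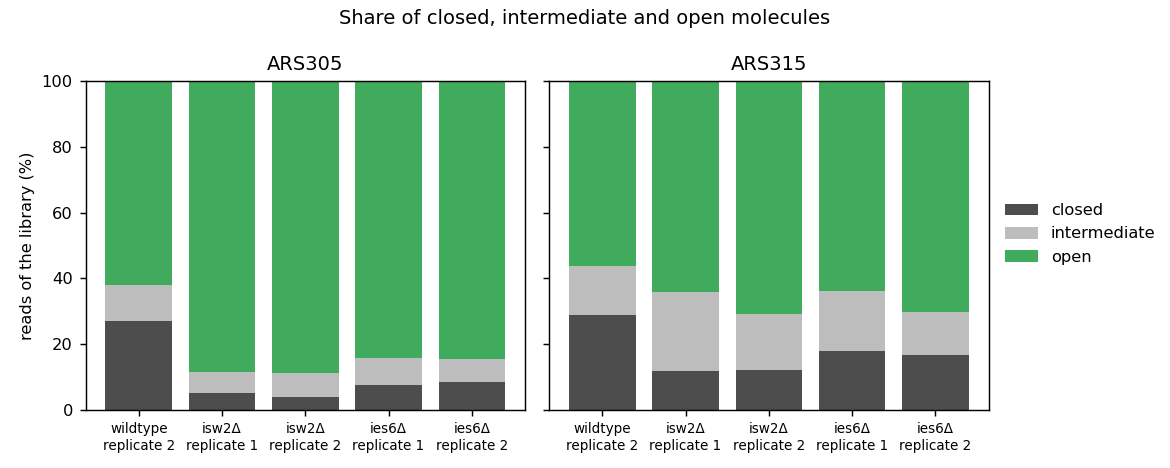
Share of closed, intermediate and open molecules (y axis, % of the reads of a library) in each of 5 libraries at ARS305 (left) and ARS315 (right). The closed share is largest in the wildtype library at both origins (26.9% and 28.8%), as a description of classes that the NFR calls define.

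Outside the NFR, open molecules were more methylated than closed molecules at both early origins, in every library and on both strands. At ARS305 the mean level outside the NFR was 0.632 in closed and 1.41 in open molecules of wildtype, 0.927 and 1.32 in isw2Δ replicate 1, 0.823 and 1.36 in isw2Δ replicate 2, 0.714 and 1.32 in ies6Δ replicate 1, and 0.937 and 1.24 in ies6Δ replicate 2. No closed mean reached an open mean, and wildtype combined the lowest closed with the highest open level. The mean log2 ratio was 0.74 ± 0.30 (SD, n = 5), a 1.67-fold difference, with a two-sided exact sign-flip permutation p of 0.0625, the smallest that 5 libraries allow.

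At ARS315 closed and open molecules had levels of 1.04 and 1.61 in wildtype, 1.11 and 1.61 in isw2Δ replicate 1, 1.15 and 1.62 in isw2Δ replicate 2, 1.10 and 1.53 in ies6Δ replicate 1, and 1.11 and 1.48 in ies6Δ replicate 2. The classes were again separate, with a log2 ratio of 0.51 ± 0.08 (1.42-fold, n = 5, exact permutation p = 0.0625). Over the 20 combinations of origin, library and strand the log2 ratio ran from 0.22 to 1.27 at ARS305 and from 0.39 to 0.69 at ARS315. The difference between the origins, 0.23 ± 0.24, was above 0 in 3 of 5 libraries and did not hold up against the spread (exact permutation p = 0.25). At ARS305 the ratio was larger on forward than on reverse reads in 5 of 5 libraries, by 0.36 ± 0.17 (exact permutation p = 0.0625). At ARS315 the strands differed by 0.05 ± 0.07, in 4 of 5 libraries (exact permutation p = 0.25).

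The late origins, classed by the same limits, had log2 ratios of 0.67 ± 0.15 (ARS313) and 0.90 ± 0.22 (ARS316). The mean of the early origins was the lower in 5 of 5 libraries, with a difference of -0.16 ± 0.07 (n = 5, exact permutation p = 0.0625). At ARS316 the ies6Δ libraries had only 176 and 575 reads, against 1560 to 1599 in the other libraries. ARS305 alone, at 0.74, lay between both late origins. A higher level outside the NFR of open molecules was thus not particular to the early origins.

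Individual molecules of the classes overlapped widely. Between 9.52% and 41.7% of closed reads at ARS305 were methylated outside the NFR above the median of open reads of their library and strand, and 10.6 to 29.5% at ARS315. Over the single reads of a library and strand, the Pearson correlation of the NFR level with the level outside was 0.26 to 0.58 at ARS305 and 0.32 to 0.47 at ARS315, over 697 to 780 reads that share a library and its methylation reaction.

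In medians over libraries, the level outside the NFR rose broadly with the NFR level and not at the limits alone. Single libraries of ARS305 did not all rise throughout. For NFR levels of 0.5 to 1, 2 to 2.5, 3 to 4, and 4 or more, wildtype had 0.751, 1.07, 1.07 and 1.63. There isw2Δ replicate 1 had 1.02, 0.870, 1.17 and 1.64, and ies6Δ replicate 2 had 1.05, 1.05, 1.05 and 1.38. At ARS305 the median over libraries was 0.843 for reads just inside the closed class (NFR level 0.5 to 1) and 0.979 for those just outside it (1 to 1.5). It was 0.974 just below the open limit (1.5 to 2) and 1.07 just above it (2 to 2.5). Reads with an NFR level of 4 or more reached 1.61. At ARS315 the corresponding medians were 1.23, 1.26, 1.31 and 1.33, while reads below 0.5 had 1.03 and those of 4 or more 1.9. With limits of 0.5 and 3 in place of 1 and 2, the log2 ratio of ARS315 was 0.75.

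**Figure D2:**
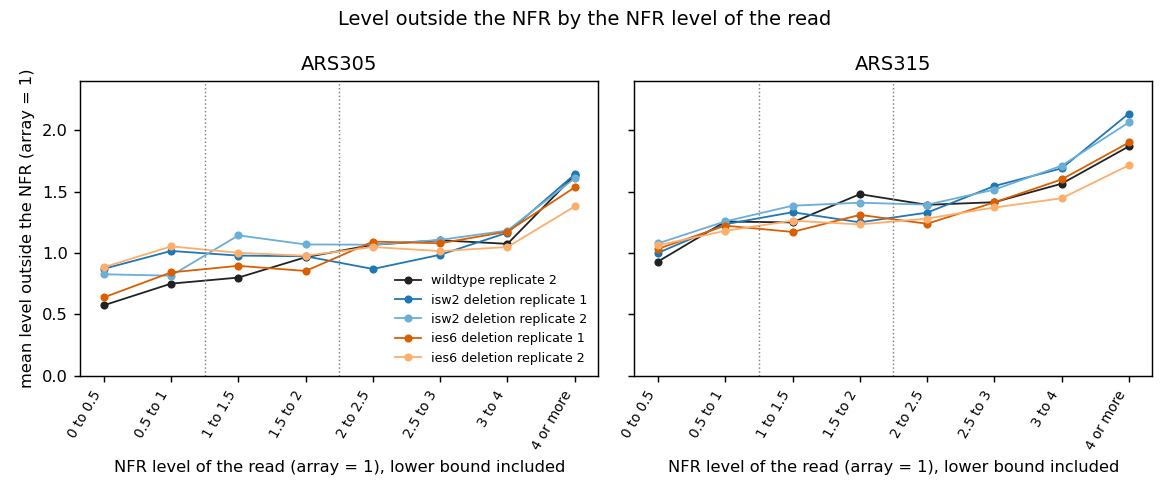
Mean methylation level outside the NFR (y axis, array = 1) of reads grouped by their own NFR level (x axis, array = 1) at ARS305 (left) and ARS315 (right), with a line per library and dotted lines at the class limits of 1 and 2. Medians over libraries run from 0.827 to 1.61 at ARS305 and from 1.03 to 1.9 at ARS315, highest for reads with an NFR level of 4 or more.

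A relation of the same sign was found in DNA without nucleosomes, smaller or larger than in chromatin depending on the measure. The naked plasmid spike-in carries ARS305, and the stretch from 310 bp before to 300 bp past the NFR was placed on it by the pattern of called strands (98.3% of positions alike, 56.3% for the next best place). Reads were ranked by NFR level, and the third with the highest level was compared with the third with the lowest. The log2 ratio of their levels in this stretch was 1.77 in chromatin and 0.34 in naked DNA of wildtype, 0.93 and 0.78 in isw2Δ replicate 1, 0.73 and 0.19 in isw2Δ replicate 2, 0.84 and 0.19 in ies6Δ replicate 1, and 0.72 and 0.20 in ies6Δ replicate 2. Chromatin had the larger ratio in 5 of 5 libraries, least so in isw2Δ replicate 1. The naked plasmid had only 52 reverse reads in wildtype, against 780 in each mutant library. The means were 1.0 ± 0.44 and 0.34 ± 0.26, a difference of 0.66 ± 0.47 (n = 5, exact permutation p = 0.0625). The Pearson correlation over single reads did not separate them, with 0.26 to 0.61 in chromatin and 0.32 to 0.81 in naked DNA over the same stretch, and naked DNA had the higher value in 6 of 10 pairs of library and strand. In isw2Δ replicate 1 it was 0.54 (forward) and 0.37 (reverse) in chromatin against 0.81 and 0.80 in naked DNA. By the limits of 1 and 2, 1.41 to 9.81% of naked molecules were closed. In ARS305 chromatin, 26.9% of wildtype and 3.78 to 8.40% of mutant reads were closed, while 84.3 to 89.0% of mutant reads were open. The lowest ranked reads of the mutants therefore also held open molecules, and ranks there do not stand for the classes.

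**Figure D3:**
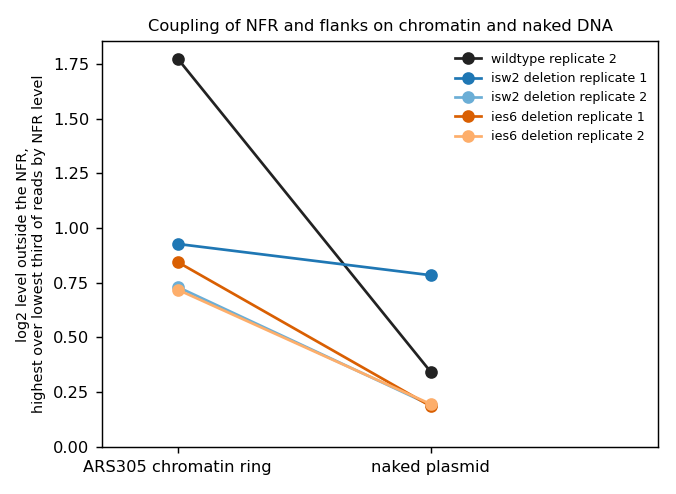
Log2 ratio of the methylation level outside the NFR (y axis) between the highest and the lowest ranked reads by NFR level, for the ARS305 chromatin ring and the naked plasmid, with a line per library. Chromatin lies above naked DNA in all 5 libraries, with the smallest gap in isw2Δ replicate 1 (0.93 against 0.78).

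Relative to the array, the difference between the classes reached nearly all of both rings. Of 70 windows of 30 bp outside the NFR, 61 (87.1%) were higher in open molecules and 0 (0%) were lower by limma with Benjamini-Hochberg adjustment, 25 of 33 at ARS305 and 36 of 37 at ARS315. The median log2 ratio was 0.66 over the windows of ARS305 and 0.48 over those of ARS315. Of 20 regions that tile the rings, 19 (95%) were higher and 0 (0%) lower in open molecules. The exception lay 330 to 450 bp before the ARS305 NFR, where open molecules were higher in 4 of 5 libraries (log2 ratio 0.29, SE 0.16, limma adjusted p = 0.11).

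**Figure D4:**
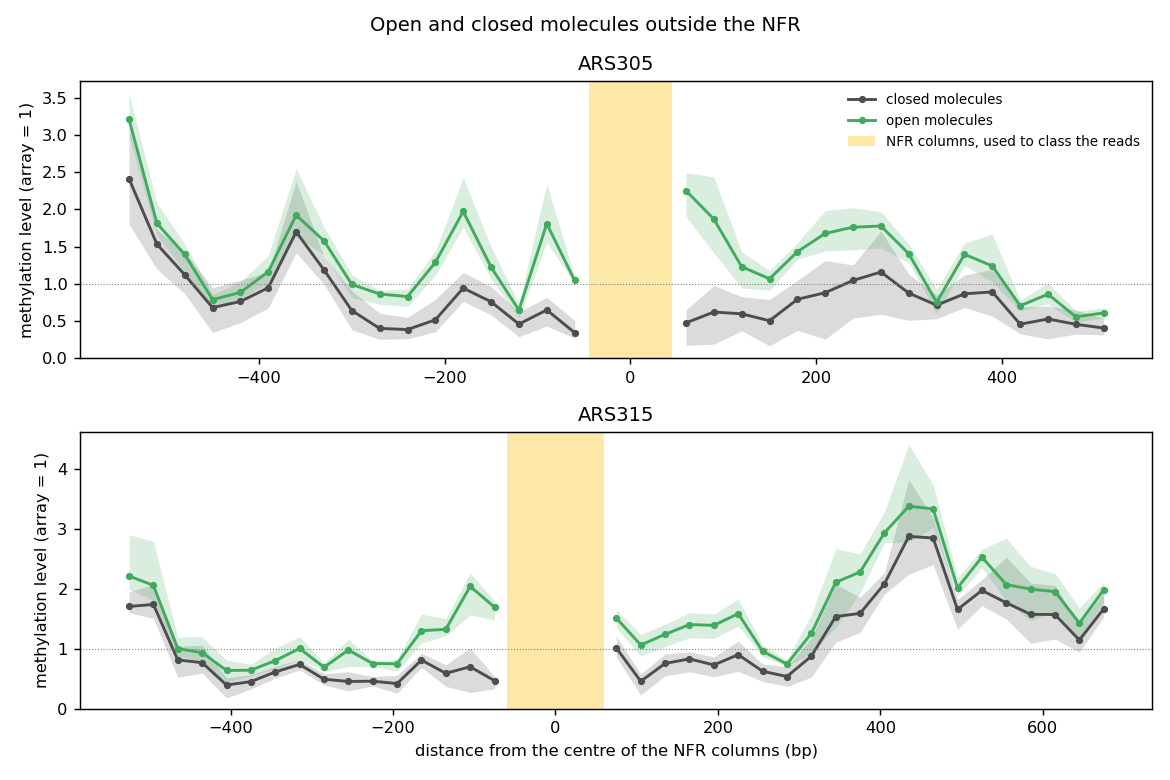
Methylation level (y axis, array = 1) of closed and open molecules in 30-bp windows along the ring (x axis, distance from the centre of the NFR in bp) at ARS305 (top) and ARS315 (bottom), as means of 5 libraries with the range over libraries shaded and the NFR in yellow. Open molecules lie above closed molecules over nearly the whole ring, with the widest gaps just past the NFR of ARS305 (log2 ratio 2.23) and just before that of ARS315 (1.76).

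The largest differences lay directly beside the NFR, on opposite sides at the origins. These places adjoin the positions that chose the classes. Whether the fixed borders cut through a single accessible stretch was not tested. At ARS305 the largest difference lay on the + side of the NFR, in the first 60 bp past it. Closed and open molecules had levels of 0.180 and 1.80 in wildtype, 0.813 and 2.36 in isw2Δ replicate 1, 0.649 and 2.37 in isw2Δ replicate 2, 0.407 and 1.88 in ies6Δ replicate 1, and 0.686 and 1.88 in ies6Δ replicate 2. The classes did not overlap, and open molecules were 3.87-fold higher, at 2.06 ± 0.282 against 0.547 ± 0.252 (SD, n = 5, log2 ratio 1.95, SE 0.24, limma adjusted p = 0.00076). In its first 30 bp alone the log2 ratio was 2.23 (SE 0.19). Of closed molecules, 84.1% in wildtype and 37.2 to 67.8% in the mutants had no call at all in these 60 bp, against 20.8% and 3.63 to 12.1% of open molecules.

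At ARS315 the largest difference lay on the other side, in the 90 bp before the NFR. Levels in closed and open molecules were 0.326 and 1.45 in wildtype, 0.761 and 1.74 in isw2Δ replicate 1, 0.491 and 1.77 in isw2Δ replicate 2, 0.630 and 1.76 in ies6Δ replicate 1, and 0.724 and 1.71 in ies6Δ replicate 2. Every open level was above every closed level (2.82-fold, log2 ratio 1.5, SE 0.14, limma adjusted p = 0.00055). No call was found there in 69.6% of closed and 22.7% of open wildtype molecules, and in 38.1 to 53.1% of closed and 7.87 to 18.8% of open mutant molecules. The last 30 bp before the NFR were 3.40-fold higher in open molecules (log2 ratio 1.76, SE 0.09). The first 30 bp past this NFR differed less, by a log2 ratio of 0.56 (SE 0.10).

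The remainder of ARS305 within 270 bp of the NFR was 1.71- to 2.06-fold higher in open molecules. Before the NFR the log2 ratios were 1.04 (SE 0.15) in the nearest 120 bp, 1.04 (SE 0.16) at a peak 120 to 150 bp away and 0.99 (SE 0.16) from 150 to 270 bp. Past the NFR they were 1.01 (SE 0.22) from 60 to 150 bp and 0.78 (SE 0.17) in the linker of the +1 and +2 nucleosomes, 150 to 270 bp away. The 3 regions farther out had ratios of 0.43 to 0.53, of which that at 270 to 330 bp was lost on reverse reads (0.11, adjusted p = 0.55, range over 17 alternatives 0.00059 to 0.55). At ARS315 the + part of the ARS, the 120 bp past the NFR, had a ratio of 0.74 (SE 0.09) and the linker of its +1 and +2 nucleosomes, 120 to 210 bp away, one of 0.78 (SE 0.09).

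Some strongly methylated places far from the NFR differed little between the classes on the log2 scale. Closed and open molecules had levels of 1.69 and 2.16 in wildtype, 1.39 and 1.69 in isw2Δ replicate 1, 1.49 and 1.73 in isw2Δ replicate 2, 1.28 and 1.59 in ies6Δ replicate 1, and 1.36 and 1.59 in ies6Δ replicate 2 at 270 to 330 bp before the ARS305 NFR, where the far oligonucleotide lies. Open molecules were higher in 5 of 5 libraries, by 1.20-fold (log2 ratio 0.27, SE 0.06, limma adjusted p = 0.0061), and the classes overlapped between libraries. At ARS315 the Tvs1 promoter, 330 to 510 bp past the NFR, had levels of 2.61 and 3.18 in wildtype, 1.88 and 2.51 in isw2Δ replicate 1, 2.20 and 2.67 in isw2Δ replicate 2, 2.08 and 2.51 in ies6Δ replicate 1, and 2.22 and 2.66 in ies6Δ replicate 2 (log2 ratio 0.30, SE 0.06, adjusted p = 0.0052). TVS1 (YCR061W) lies at positions 225563 to 227458 of chromosome III (build R64). Nearly every molecule of both classes had at least 1 call somewhere in its promoter, and at most 1.15% of the closed molecules of a library lacked one. This share depends on the width of the region and cannot be set against those of the shorter regions beside the NFR.

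Closed molecules also held longer stretches without a methylated base on either side of the NFR, with the NFR itself left out. The median of the longest such stretch per read was the longer in closed molecules in 10 of 10 combinations of library and strand at each origin. At ARS305 it ran from 165 to 306 bp in closed and from 126 to 209 bp in open molecules, and at ARS315 from 170 to 332.5 bp and from 122 to 215 bp. A stretch of at least 300 bp was present in 11.8 to 55.0% of closed and 3.72 to 23.7% of open molecules of ARS305. These lengths fall as a read holds more calls, and the part of this in the difference was not tested.

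Scaling each read to its own mean outside the NFR removed the overall difference and left the difference in shape. Of the 70 windows, 16 (22.9%) were then higher and 12 (17.1%) lower in open molecules, 8 and 9 at ARS305 and 8 and 3 at ARS315. Of the 20 regions, 7 (35%) were higher and 5 (25%) lower. Scaled values of a read average to 1, so that higher and lower places are not independent of each other. Scaled p-values of regions rest on a spread that limma estimated as nearly common to all regions.

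**Figure D5:**
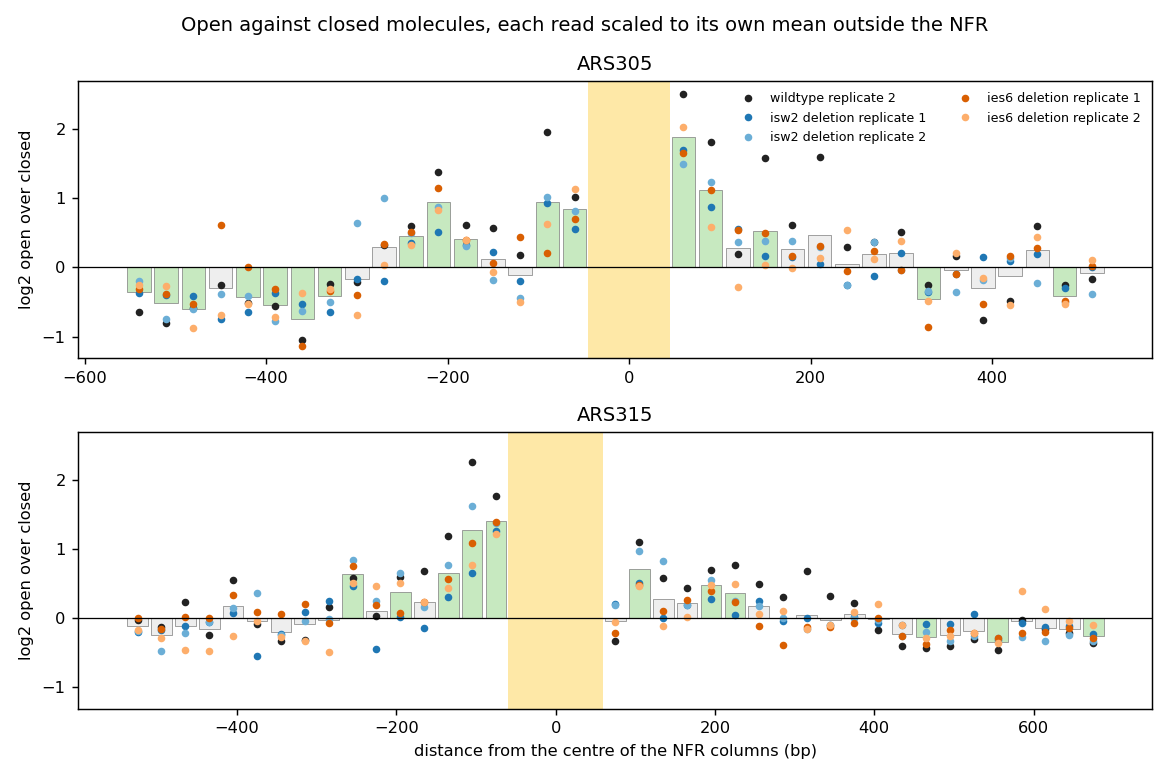
Log2 ratio of open over closed molecules (y axis) in 30-bp windows along the ring (x axis, distance from the centre of the NFR in bp) after scaling each read to its mean outside the NFR, with a point per library and bars for the mean of 5 libraries, green where the adjusted p was below 0.05. The ratio is highest just past the NFR of ARS305 (1.88) and just before that of ARS315 (1.40), and lowest at 300 to 330 bp before the NFR of ARS305 (-0.74).

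The places with the largest array-normalized difference also led on the scaled level. In the first 60 bp past the ARS305 NFR the scaled log2 ratio was 2.19 in wildtype, 1.28 and 1.36 in the isw2Δ libraries, and 1.44 and 1.40 in those of ies6Δ (mean 1.53, SE 0.11, limma adjusted p = 1.2e-14). In the 90 bp before the ARS315 NFR it was 1.71 in wildtype, 0.73 and 1.25 in the isw2Δ libraries, and 1.03 and 0.82 in those of ies6Δ (mean 1.11, SE 0.11, adjusted p = 7.7e-11). Both were higher in open molecules in 5 of 5 libraries. Their SE and p-values come from the spread shared by all regions and not from these 5 values alone. With ranked reads in place of the classes, the ARS305 value was 0.45 (adjusted p = 0.16, range over 19 alternatives 8.2e-25 to 0.16), while ARS315 passed in all 19. The lowest ranked ARS305 reads of the mutants also held open molecules, so that this setting does not compare open with closed molecules there. The first 30 bp past the ARS315 NFR did not lead on this scale (-0.04, SE 0.11, adjusted p = 0.79), but the next 30 bp were higher by 0.71 (SE 0.12).

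On the scaled level the side of ARS305 before the NFR split into a far part that was lower and a near part that was higher in open molecules. The 3 regions from 270 bp outward had log2 ratios of -0.63, -0.51 and -0.42 (SE 0.10 each), with the same sign in 5 of 5 libraries. The second of them, 330 to 450 bp away, was lost with ranked reads (-0.19, adjusted p = 0.13, range over 19 alternatives 5.1e-07 to 0.13). On the scaled level the window 300 to 330 bp away fell from 3.06 ± 1.19 in closed to 1.75 ± 0.39 in open molecules. Its array-normalized level did not fall, with 1.70 in closed and 1.92 in open molecules. There open molecules were higher in 5 of 5 libraries, short of the threshold (limma adjusted p = 0.071). The 3 regions within 270 bp had scaled ratios of 0.49, 0.41 and 0.38 (SE 0.10, 0.09 and 0.10), again with 1 sign in 5 of 5 libraries. The nearest 120 bp passed in all 19 alternatives. The peak 120 to 150 bp away was lost on reverse reads (0.12, adjusted p = 0.30) and with ranked reads (0.16, adjusted p = 0.20), over a range of 8.3e-05 to 0.30, and the region from 150 to 270 bp on forward reads (0.06, adjusted p = 0.59), over a range of 0.00039 to 0.59. Among the nearest 4 windows, those at 0 to 30 and 30 to 60 bp had ratios of 0.85 and 0.95, while those at 60 to 90 and 90 to 120 bp did not pass the threshold (-0.10 and 0.12).

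Set against naked DNA of ARS305 by rank, parts of this split differed with 1 sign in 5 of 5 libraries and others did not. Between the highest and the lowest ranked reads, positions 270 to 310 bp before the NFR had a scaled log2 ratio of -0.75 ± 0.38 in chromatin and -0.08 ± 0.03 in the naked plasmid, lower in chromatin in 5 of 5 libraries. The nearest 120 bp had ratios of 0.30 ± 0.16 and -0.02 ± 0.07, higher in chromatin in 5 of 5 libraries. Both differences had an exact permutation p of 0.0625 (n = 5). From 150 to 270 bp the ratios were 0.15 ± 0.12 and 0.01 ± 0.06, higher in chromatin in 4 of 5 libraries (exact permutation p = 0.1875). At the peak 120 to 150 bp away chromatin itself had -0.06 ± 0.10 by rank, against -0.07 ± 0.07 in naked DNA (3 of 5 libraries, exact permutation p = 0.6875). In the first 60 bp past the NFR the values were 0.28 ± 0.61 (range -0.15 to 1.34) and 0.08 ± 0.10. Chromatin was higher in 3 of 5 libraries (exact permutation p = 0.625), so that by rank the + side was not separated from naked DNA. The lowest ranked reads of the mutants also held open molecules. Ranks therefore cannot decide, at any of these places, whether the difference between the classes was separate from naked DNA.

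Farther past the NFR the scaled differences were smaller. At ARS305, the region 60 to 150 bp away had a ratio of 0.32 (SE 0.10, adjusted p = 0.0061, higher in 4 of 5 libraries), which was lost on reverse reads (0.03, adjusted p = 0.82) and with at most 60 reads per class (0.32, adjusted p = 0.058), over a range of 0.00074 to 0.82. The linker of the +1 and +2 nucleosomes had 0.21 (SE 0.10, adjusted p = 0.059), with 0.64 in wildtype and -0.06 to 0.30 in the mutants. At ARS315 this linker was higher by 0.36 (SE 0.10, adjusted p = 0.0019) in 5 of 5 libraries, but not on forward reads alone (0.13, adjusted p = 0.29, range 2.0e-06 to 0.29). The + part of the ARS had 0.21 (SE 0.10, adjusted p = 0.051) and passed in 10 of 19 alternatives (0.12 to 0.42, adjusted p from 0.0010 to 0.36). The region 330 to 360 bp past the ARS305 NFR was lower (-0.29, SE 0.11, adjusted p = 0.017), with 1 library of opposite sign, and lost its call in 9 of 19 alternatives (adjusted p from 0.00031 to 0.90).

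The scaled level of the Tvs1 promoter was lower in open molecules in 5 of 5 libraries, at -0.37 in wildtype, -0.09 and -0.22 in the isw2Δ libraries, and -0.23 and -0.17 in those of ies6Δ (mean -0.21, SE 0.09, adjusted p = 0.046). This call was lost in 8 of 19 alternatives with the sign kept (adjusted p from 0.012 to 0.16). Its last 30 bp, 480 to 510 bp past the NFR, were lower by -0.34 (SE 0.09) and passed in all 19.

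Whether the difference between the classes differed between genotypes was tested by limma over the 5 libraries together, with a spread that comes from the mutant pairs because wildtype has 1 library. On the array-normalized level, 0 of 20 regions (0%) passed in isw2Δ against wildtype, in ies6Δ against wildtype and in isw2Δ against ies6Δ, with 5, 6 and 0 at an unadjusted p under 0.05. On the scaled level, 2 regions were lower in isw2Δ than in wildtype (10%), the same 2 in ies6Δ (10%), and 0 differed between the mutants (0%), also at an unadjusted p under 0.05. They were the regions beside the ARS305 NFR. In the 120 bp before it, the scaled ratio of open over closed was 1.02 in wildtype, 0.45 and 0.35 in the isw2Δ libraries, and 0.30 and 0.34 in those of ies6Δ. The differences from wildtype were -0.62 (SE 0.11, adjusted p = 0.047) and -0.70 (SE 0.11, adjusted p = 0.032). In the 60 bp past it they were -0.87 (SE 0.10, adjusted p = 0.026) and -0.77 (SE 0.10, adjusted p = 0.032). Both mutants were set against the same wildtype library, and with the replicate number as a block 0 regions passed in either. Without isw2Δ replicate 1, 0 regions passed in isw2Δ.

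Among closed molecules, the linker of the +1 and +2 nucleosomes of ARS305 had a level of 0.473 in wildtype, 1.21 and 1.04 in the isw2Δ libraries, and 1.05 and 1.18 in those of ies6Δ. It was higher than wildtype by 1.16 in isw2Δ (SE 0.19, limma adjusted p = 0.027) and by 1.15 in ies6Δ (SE 0.19, adjusted p = 0.033) on the log2 scale. The 60 bp past the NFR were also higher in isw2Δ, by 1.75 (SE 0.33, adjusted p = 0.027). No other closed region passed, which makes 2 of 20 (10%) in isw2Δ, 1 (5%) in ies6Δ and 0 (0%) between the mutants, where 2 had an unadjusted p under 0.05. On forward reads alone, with the replicate number as a block, or without either ies6Δ library, 0 passed in either mutant. Wildtype closed molecules were also those allowed the fewest NFR calls, and the part of this in the difference was not tested.

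Among open molecules, 9 of 20 regions passed in isw2Δ against wildtype (45%), 4 higher and 5 lower, 9 in ies6Δ against wildtype (45%), 2 higher and 7 lower, and 4 between the mutants (20%), 3 higher and 1 lower in isw2Δ. Without normalization to the array, the 5 lower regions of isw2Δ and 6 of the 7 of ies6Δ changed sign. Without either isw2Δ library, 0 regions passed in any of the 3 contrasts. The contrast of the mutants does not use the wildtype level. Array means differed there too, at 5.67 to 6.17% in isw2Δ and 4.51 to 5.16% in ies6Δ. Differences between the mutants cannot be told apart from this difference in methylation. In the contrast of the mutants, the 60 bp past the ARS305 NFR had 2.36 and 2.37 in the isw2Δ libraries and 1.88 in both of ies6Δ (log2 difference 0.32, SE 0.03, adjusted p = 0.0090). The region 210 to 330 bp past the ARS315 NFR had 1.89 and 1.85 against 1.31 and 1.27 (0.52, SE 0.04, adjusted p = 0.0050). Both kept their sign in 13 alternatives, with adjusted p-values of up to 0.16 and 0.14.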

How the data were processed

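MATAC-seq reads of 5 libraries were analysed. The authors called m6A and CpG methylation with Megalodon, applied their own score thresholds and deposited unnormalized calls, fractions that are 0 or 1 for every base of a read, in 60 tables by locus and strand. Of these deposited tables, 3 separate the same calls by spaces. The labels name build R64. An incomplete read was left out (1 read).

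Levels were divided by the array mean of a read's library and strand, or by the read's own mean outside the NFR. Classes were averaged per library and strand, then over strands, in 30-bp windows and in regions read by eye from published profiles. Log2 ratios (pseudocount 0.05) were tested with limma 3.58.1 (R 4.3.3), Benjamini-Hochberg adjustment and a threshold of 0.05, single values with exact sign-flip permutation tests (Python 3.11.15). Reads were not taken as replicates. The members, regions and tests were chosen with earlier results of these data known. Named windows were up to 3 per origin, scale and direction, with the largest ratio past the threshold and 1 sign in 5 libraries, and other windows were picked after their values were seen. Depth limits closed ARS305 molecules most. Scripts were tested on simulated data. Alternatives covered class limits, strands, read caps, sites, pseudocounts, window size, scaling, normalization, a replicate block and each library left out.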

Additional observations from a re-analysis of the deposited data

Results flagged for a closer look

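In 4 results the difference between open and closed molecules itself differed between genotypes by limma with Benjamini-Hochberg adjustment. In the 120 bp before the ARS305 NFR, the scaled log2 ratio of open over closed molecules differed from wildtype by -0.62 in isw2Δ and by -0.70 in ies6Δ. In the 60 bp past this NFR it differed by -0.87 in isw2Δ and by -0.77 in ies6Δ. The sign was kept in 10 alternatives, with adjusted p-values from 7.97e-07 to 0.41 and from 8.78e-06 to 0.27 before the NFR, and from 6.68e-17 to 0.18 and from 1.19e-14 to 0.27 past it. A single wildtype library stands behind all of them. It had the lowest array means (3.23% and 3.74%) and the most closed molecules of ARS305 (402 reads), and the part of these properties in the differences was not tested.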

How the results depend on the processing

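The log2 ratio of the level outside the NFR stayed above 0 in every alternative at both origins, from 0.56 to 0.92 at ARS305 and from 0.48 to 0.55 at ARS315, apart from 0.75 at ARS315 with limits of 0.5 and 3. The count of windows higher in open molecules was 37 of 40 with windows of 50 bp, and that of scaled windows lower in open molecules was 6 with these windows, 6 on reverse reads, 7 with at most 60 reads per class and 7 when 60 bp beside the NFR were left out of the scaling, which also gave 3 scaled regions lower in open molecules, as did 60 reads per class.

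Contrasts between genotypes depended on the settings more strongly. For the open over closed ratio on the array-normalized level, limits of 0.5 and 3, ranked reads and reverse reads gave 3, 8 and 3 regions in isw2Δ against wildtype and 2, 9 and 3 in ies6Δ against wildtype. On the scaled level they gave 0, 12 and 0 in both, forward reads gave 1 in isw2Δ, and ranked reads gave 2 between the mutants. For open molecules, limits of 0.5 and 3 gave 5 and reverse reads 4 regions in isw2Δ against wildtype, forward reads 4 in ies6Δ against wildtype, and ranked reads 7 and reverse reads 2 between the mutants. For closed molecules, limits of 0.5 and 3, ranked reads, forward reads and reverse reads gave 7, 14, 0 and 5 in isw2Δ and 6, 11, 0 and 2 in ies6Δ, and ranked reads 3 between the mutants. Without normalization, open molecules had 18 regions in isw2Δ against wildtype and 15 between the mutants, and closed molecules 16, 14 and 2 in the 3 contrasts. With the naked plasmid as reference, open molecules had 0 in ies6Δ and 10 between the mutants, and closed molecules 13 in isw2Δ and 4 in ies6Δ. At ARS305, 26.9% of wildtype and 3.78 to 8.40% of mutant reads were closed, and 61.9% and 84.3 to 89.0% were open. Lowest ranked reads there thus differed in class between wildtype and the mutants, and contrasts with ranked reads do not compare like classes. The part of this in their counts was not tested, nor was the cause of the other changes.

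Regions lower in open mutant molecules changed sign with the reference, the cause of which was not tested. At ARS305 in isw2Δ against wildtype, the regions 270 to 330 and 120 to 150 bp before and 330 to 360 bp past the NFR had log2 differences of 0.46, 0.44 and 0.12 without normalization, and the first pair 0.016 and 0.00094 by the naked plasmid. At ARS315 the region 420 to 480 bp before the NFR had 0.21 and the Tvs1 promoter 0.49 without normalization, and the promoter 0.041 by the naked plasmid. In ies6Δ without normalization, the regions of ARS305 at 270 to 330, 120 to 150 and 0 to 120 bp before and 330 to 360 bp past the NFR had 0.038, 0.12, 0.13 and 0.056, and those of ARS315 at 210 to 330 bp past it and in the promoter 0.13 and 0.17. Between the mutants, the region 330 to 360 bp past the ARS305 NFR had 0.063 without normalization and 0.013 by the naked plasmid.

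Same-numbered libraries of isw2Δ and ies6Δ did not deviate together (correlations from -0.57 to 0.08), and the numbers were not taken as pairs. The fit with the replicate number as a block gave 3 scaled regions lower in open molecules, 0 and 0 scaled differences of isw2Δ and ies6Δ from wildtype, 3 open regions in ies6Δ against wildtype and 2 between the mutants, and 0 closed regions in either mutant. A block with the ies6Δ libraries crossed, added after the data had been seen, gave 0 and 0 scaled differences and 8 and 5 closed regions. The block left the outside ratios at 0.73 and 0.51.

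Leaving out each library in turn gave outside ratios of 0.63 to 0.82 at ARS305 and 0.48 to 0.54 at ARS315, a difference between the origins of 0.15 to 0.29 and between early and late origins of -0.19 to -0.14. Array-normalized counts were 51 to 63 windows and 19 to 20 regions, and scaled counts were 13 to 16 windows higher, 10 to 12 lower, 7 to 8 regions higher and 3 to 6 lower. The scaled ratio differed from wildtype in 0 to 5 regions of isw2Δ and 3 to 5 of ies6Δ. Open levels differed in 0 to 10 regions of isw2Δ, 0 to 11 of ies6Δ and 0 to 9 between the mutants, and closed levels in 0 to 5 and 0 to 4. The other genotype counts stayed at 0 to 0. The scaled ratio of isw2Δ had 0 regions without isw2Δ replicate 1, open levels had 0 in all 3 contrasts without either isw2Δ library, and closed levels had 0 without either ies6Δ library. Regions lower on the scaled level were 3 without ies6Δ replicate 1. Wildtype could not be left out of its own contrasts.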
